A study of Mus musculus with 65 samples.

Results

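Expression of 10 genes linked to the switch from neurogenesis to gliogenesis was followed through a stem cell model of the ventral neural tube. They are the SoxE factors Sox8, Sox9 and Sox10, the nuclear factor I genes Nfia, Nfib and Nfix, the zinc finger gene Zbtb20, and the radial glia genes Fabp7, Slc1a3 and Tnc. These 10 genes, of 25239 in the deposited table, were chosen by name for their known roles. The table holds polyA RNA sequencing of 65 libraries in 25 groups.

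All libraries came from HM1, a single mouse embryonic stem cell line, so every group is a culture model of 1 genotype. Cells were driven to neuromesodermal progenitors (NMP) by day 3, and 3 libraries represent that stage. From day 3 all cultures received 100 nM retinoic acid, with the Smoothened agonist SAG at 0, 10, 100 or 500 nM to mimic graded Shh. Fixed cells were stained for transcription factors inside the cell, gated on SOX2 and sorted into 4 progenitor types, with 16 libraries on day 4, 24 on day 5 and 22 on day 6. p3 cells, the most ventral, carried NKX2.2, and pMN cells, the motor neuron progenitors, carried OLIG2, both sorted from 100 and 500 nM SAG. p2 cells carried NKX6.1 and PAX6 and came from 10 and 100 nM SAG, and p0-1 cells carried PAX6 without NKX6.1 and came from 0 and 10 nM SAG. The replicates are independent differentiations. The paper describes comparing cell types from the same dish, so types sorted at the same SAG concentration and day can share a dish. The main fit treated all libraries as independent. The gate removed SOX2-negative cells, so neurons and mature glia that have lost SOX2 are outside what was measured.

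In the spinal cord the ventricular progenitors first make neurons and later make astrocytes and oligodendrocytes. SOX9 appears in progenitors early and is needed for the switch, NFIA follows and acts with it, and SOX8 and SOX10 are later SoxE factors, with SOX10 marking the oligodendrocyte lineage and the neural crest. NFIB and NFIX belong to the same family as NFIA, and ZBTB20 promotes astrocyte formation in the forebrain. FABP7 (brain lipid binding protein), SLC1A3 (the glutamate transporter GLAST) and TNC (the matrix protein tenascin C) are products of radial glia and young astrocytes.

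Among these genes 1 SoxE factor and 1 radial glia gene passed the test. Sox9 rose from day 3 to day 4, and Fabp7 rose from day 5 to day 6. The nuclear factor I genes and Zbtb20 gave no call in this limma fit, though some of them were called in alternative fits that are given with each gene. Levels below are normalised reads, meaning reads divided by a size factor for each library. A change was called at an adjusted p below 0.01 with more than a 2-fold difference, by limma on log2(normalised reads + 1) with Benjamini-Hochberg adjustment over 13964 genes with a mean of at least 10. Of the 10 genes 8 passed that filter, while Sox10, with a mean of 0.222, and Tnc, with a mean of 5.82, did not and have no test. In sorted bulk samples fewer cells with a transcript and less transcript per cell cannot be told apart.

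Promoter sequences are shown for Fabp7 and Slc1a3, which had the lowest adjusted p of the step from day 5 to day 6, to set a window with a nuclear factor I motif beside one without. Of the 10 genes, 7 had a promoter in the RefSeq table for GRCm38.p6 (mm10), which did not hold Sox9, Sox10 or Nfib. The 250 bases before the start of each gene are given 5′ to 3′ on the strand of the gene. Capitals mark TTGGC, the core letters of a nuclear factor I motif. TTGGC and the SOX motifs AACAAT and ACAAAG were searched on both strands. The Fabp7 window is chr10:57784673-57784922 on the plus strand, and the Slc1a3 window is chr15:8710808-8711057 on the minus strand.

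Fabp7: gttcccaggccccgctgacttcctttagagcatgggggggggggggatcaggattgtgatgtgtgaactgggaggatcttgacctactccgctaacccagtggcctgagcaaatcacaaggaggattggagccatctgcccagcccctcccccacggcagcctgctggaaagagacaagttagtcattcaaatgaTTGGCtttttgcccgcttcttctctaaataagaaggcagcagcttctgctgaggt

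Slc1a3: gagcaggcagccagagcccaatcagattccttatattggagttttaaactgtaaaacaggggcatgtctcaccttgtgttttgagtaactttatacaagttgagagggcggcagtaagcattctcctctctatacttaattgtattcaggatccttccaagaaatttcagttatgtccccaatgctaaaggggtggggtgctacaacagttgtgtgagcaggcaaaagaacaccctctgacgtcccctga

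The Fabp7 window held 1 TTGGC, 55 bases before the start, and neither SOX motif. The Slc1a3 window held none of them. TTGGC occurred in 41.5% of the 32851 promoter windows of this length, AACAAT in 9.42% and ACAAAG in 16.5%. The full nuclear factor I palindrome, which joins this core to its reverse complement across a short spacer, was in 0.0365% of the windows and in none of those of the 7 genes. Sox8, Nfix and Tnc also had windows with a TTGGC. A match describes letters and does not show a bound site.

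The libraries held 7615114 to 13484815 reads in genes and 9718 to 15963 detected genes. The 3 NMP libraries detected more genes (median 15429) than those of day 4 (13174), day 5 (12707) or day 6 (12674). All 6 NMP marker genes fell from day 3 to day 4 and 6 of 8 neural progenitor markers rose, Sox1, Pax6 and Nkx6-1 the most. No marker of mesoderm or floor plate was called by limma in any step averaged over the cell types, with at most 1 of 6 and 3 of 5 tested genes at an unadjusted p under 0.05, no edgeR call and at most 2 and 1 DESeq2 calls. The summed level of the 5 floor plate markers in p3 had medians of 3525 on day 4, 5886 on day 5 and 8684 on day 6, where it reached 21792, against day 6 medians of 1376 to 2149 in the other types, and its part in the p3 results was not tested. Of 7 fibroblast markers, for the feeder cells, 3 were tested and Col3a1 rose by day 6. By counting error a count of 0 allows up to about 3 reads. Reads carry no molecular identifiers, and loss of transcripts before sequencing was not measured. The 3-read floor and the fold bounds built on it cover counting error only. Libraries of a single group could differ widely, as for Sox8 in day 6 p2 at 100 nM SAG, with 0, 0 and 595 normalised reads. P-values measure the spread between these libraries. Day 4 p3 at 100 nM SAG and day 4 p2 at 10 nM SAG have 1 library each, and their spread is taken from the other groups.

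Sox9 (mm10, chr11:112782210-112787757, plus strand) encodes a SoxE factor that appears early in spinal cord progenitors. The NMP libraries had 75.2, 9.001 and 2.72 normalised reads. On day 4 the p0-1 libraries had 164, 203, 216, 277 and 61.6, and the p2 libraries had 179, 82.5 and 226. The p3 libraries had 240, 168, 292 and 192, and the pMN libraries had 161, 205, 99.9 and 150. The ratio of the day 4 to the day 3 mean was 6.29. Of the 16 day 4 libraries 15 lay above every NMP library, the exception being p0-1 at 10 nM SAG, replicate 3.

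From day 3 to day 4, averaged over the cell types, Sox9 rose by 3.64 ± 0.66 on the log2 scale (SE, limma adjusted p = 9.8e-05). It was the only 1 of the 8 tested genes called in that step, in which 3.49% of all genes tested were called. The median of all genes in the same step was -0.40, so the rise of Sox9 stands above a general shift downwards. Under quantile normalisation that median was -0.0059, and the share of calls that were higher went from 37.7% to 58.2%, while Sox9 stayed called.

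Within the cell types Sox9 rose in p3 (3.998 ± 0.85, adjusted p = 0.00049), p0-1 (3.58 ± 0.76, adjusted p = 0.0016) and pMN (3.41 ± 0.79, adjusted p = 0.0042) in the same limma fit. In p2 the estimate was 3.56 ± 0.87 with an adjusted p of 0.011, which missed the threshold. These 4 contrasts share the 3 NMP libraries, which range from 2.72 to 75.2. The share of all genes called in this step was 8.43% in p3, 2.53% in pMN, 1.53% in p2 and 2.16% in p0-1, and Sox9 was the only called gene of the 8 in p3, pMN and p0-1. In p2 none of the 8 was called in this limma fit or by edgeR, and DESeq2 called 2. There 1 of the 8 had an unadjusted p under 0.05, against 1301 of all 13964 genes. Sox9 in p2 was called in 11 of 75 alternative fits, of which 7 left out 1 library. The others were limma with no filter (adjusted p = 0.0041), quantile normalisation (9.2e-05), TMM scaling (0.0081) and array weights (0.00072).

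The call depends on the lowest NMP library. Without NMP replicate 3, at 2.72, the rise over all types was 2.67 with an adjusted p of 0.024, and none of the 4 types passed (adjusted p 0.019 in p3, 0.085 in p0-1, 0.13 in pMN and 0.19 in p2). Without NMP replicate 2, at 9.001, the rise over all types was 3.39 (adjusted p = 0.0052) and p3 alone passed. The edgeR quasi-likelihood test on the recovered reads gave 2.68 over all types with an adjusted p of 0.020 and called none of the 4 types. With only the compared groups in the limma fit Sox9 stayed called over all types (adjusted p = 0.0089), while p3, p0-1 and pMN lost the call (adjusted p = 0.070, 0.14 and 0.21).

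After day 4 the libraries of single days spread widely. The day 5 libraries ran from 10.9 to 664 with a median of 245, and the day 6 libraries from 136 to 1120 with a median of 506. Both days overlap day 4 and each other, though 19 of 22 day 6 libraries lay above the day 5 median. The step to day 5 was 0.33 ± 0.35 (limma adjusted p = 0.62) and the step to day 6 was 1.12 ± 0.31 (limma adjusted p = 0.025), neither called. In p3 the 5 day 6 libraries had 342, 466.5, 672, 489.8 and 367, all above the 6 of day 5, which had 101, 234 and 329.6 as lowest, median and highest. That step was 1.15 ± 0.63 in p3 (limma adjusted p = 0.56).

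**Figure D1:**
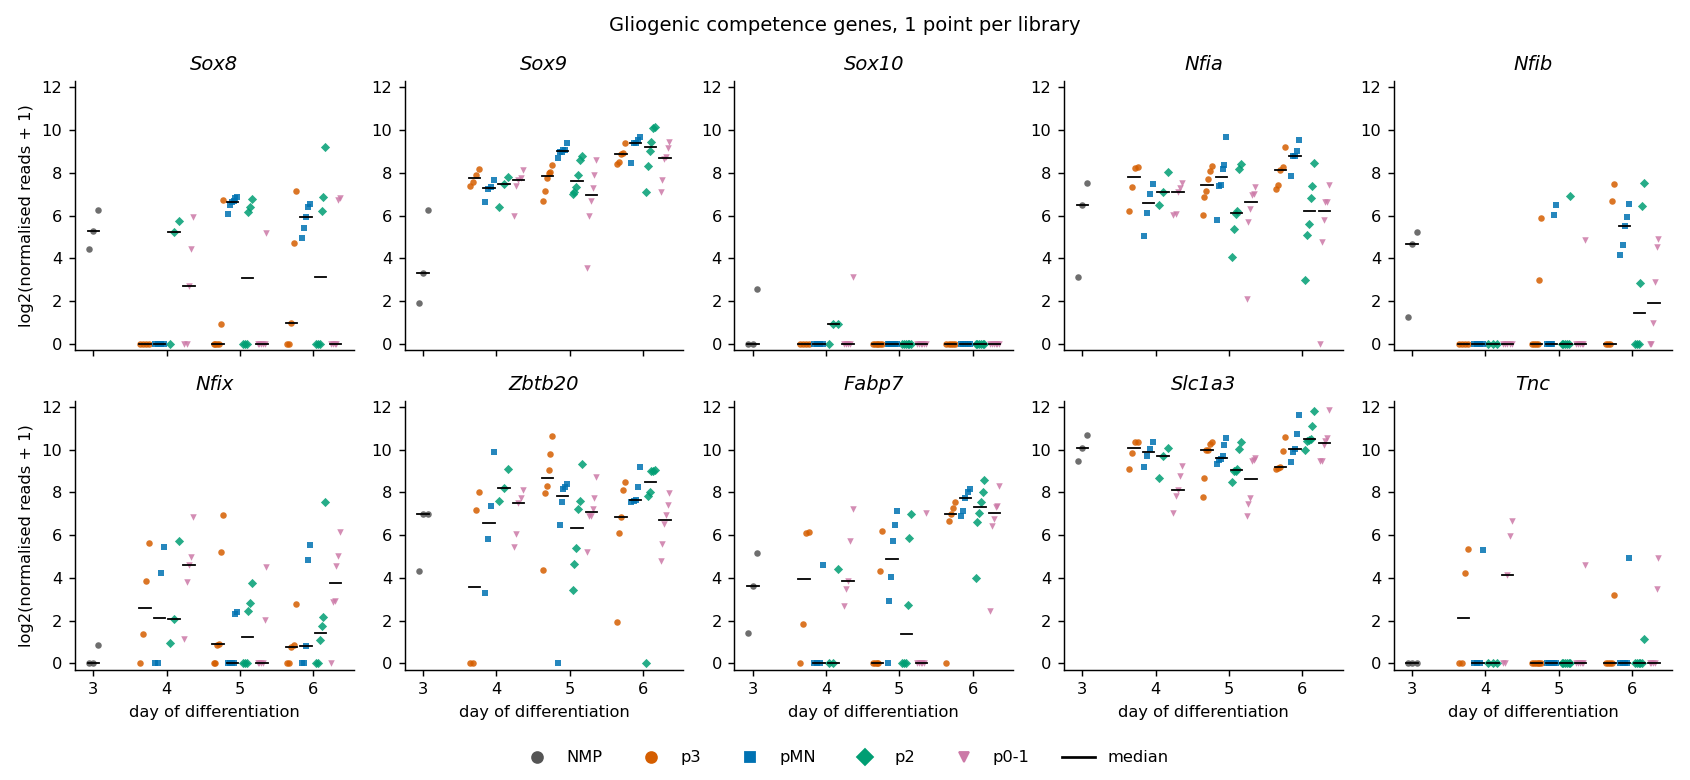
Level of each of the 10 genes on a log2(normalised reads + 1) axis against day, with 1 point per library, coloured by cell type, and bars at the medians. Sox9 libraries sit at 2.72 to 75.2 normalised reads on day 3 and 61.6 to 292 on day 4, and Fabp7 libraries reach a median of 147 on day 6 after a median of 0 on day 5.

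Sox8 (chr17:25565893-25570686, minus strand), a SoxE factor close to SOX9 and SOX10, was read in all 3 NMP libraries at 76.9, 38.3 and 20.4. On day 4 it had no read in the 4 p3 and the 4 pMN libraries. The p2 libraries of that day had 0, 52.6 and 36.8, and the p0-1 libraries had 0, 21.0, 5.47, 0 and 59.8. Sox8 was thus not detectable at this depth in the more ventral types on day 4 and mixed in the others. Its step to day 4 was -3.68 over all types and -5.33 in both p3 and pMN (limma adjusted p = 0.24, 0.094 and 0.15). None of these was called, nor were p2 and p0-1. With only the compared groups in the limma fit the fall was called in p3 and pMN (adjusted p = 0.0042 and 0.0093). DESeq2 called it in p3, in pMN and over all types (adjusted p = 7.9e-05 over all types).

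In pMN Sox8 was then present in every library. On day 5 its lowest, median and highest values in the 6 pMN libraries were 67.2, 100 and 117, and on day 6 the 5 pMN libraries had 42.0, 92.8, 59.4, 83.4 and 29.7. Against a floor of 3 reads in each day 4 pMN library, the day 5 mean was at least 39.7-fold higher. The limma adjusted p of that step was 0.031, so it is not called, although the groups do not overlap. The share of all genes whose libraries separate like this was not counted, here or for other groups described as apart. DESeq2 called the step (adjusted p = 1.2e-14) with an estimate of 21.9. With every day 4 pMN count at 0, that size is not a measured fold change. No other type had Sox8 in all its libraries on days 5 and 6.

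Across types on days 5 and 6, more than 3 reads of Sox8 were found in 11 of 11 pMN, 6 of 12 p2, 3 of 11 p3 and 3 of 12 p0-1 libraries. The highest value was 595, in a p2 library of day 6. On the log2 scale pMN stood 4.64 ± 1.13 above p0-1 (limma adjusted p = 0.013) and 2.73 ± 1.13 above p2 (adjusted p = 0.34), and p3 minus pMN was -4.01 ± 1.16 (adjusted p = 0.069). None passed the threshold in this fit. The means run the other way for p2, at 81.0 in pMN and 87.5 in p2, which includes the library at 595. The difference between pMN and p0-1 was called in 9 of 74 alternative fits, 8 that left out 1 library and DESeq2 (adjusted p = 0.00072), and DESeq2 also called that between p3 and pMN (adjusted p = 8.2e-05). DESeq2 likewise called Sox8 higher in p2 than in p0-1 (adjusted p = 0.00072) and lower in p3 than in p2 (adjusted p = 5.6e-05). It did not call pMN against p2.

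Sox10 (chr15:79154913-79164490, minus strand) was at 0 in 61 of 65 libraries. Its highest values were 4.96 in an NMP library and 7.66 in a day 4 p0-1 library, and it had no read in any of the 46 libraries of days 5 and 6. Sox10, which marks oligodendrocyte precursors and neural crest, was thus not detectable at this depth on those days. Erbb3, a receptor gene of neural crest cells, fell from day 3 to day 4 by 5.95 ± 1.37 on the log2 scale (limma adjusted p = 0.0026). The part of neural crest cells in the SoxE levels was not tested.

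**Figure D2:**
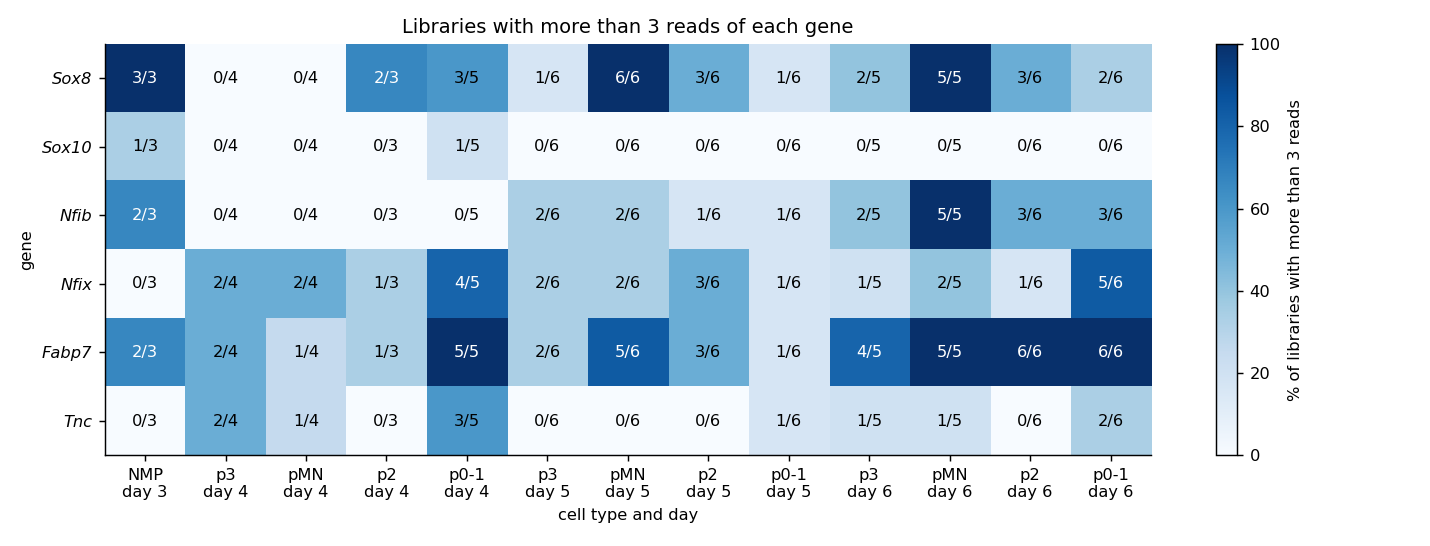
Libraries with more than 3 reads, given as counts of libraries in each cell and as a colour scale in percent, for the 6 genes with many values at 0 by cell type and day. Sox8 is in 6 of 6 and 5 of 5 pMN libraries on days 5 and 6, Nfib is in none on day 4 and in 5 of 5 pMN libraries on day 6, and Fabp7 is in 21 of 22 day 6 libraries.

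Nfia (chr4:97581943-98118876, plus strand), the founding gliogenic member of its family, was already read in the NMP libraries, at 90.1, 7.88 and 185. The day 4 libraries ran from 31.9 to 306 with a median of 137, those of day 5 from 3.35 to 823 with a median of 136, and those of day 6 from 0 to 732 with a median of 169. The ranges of all 4 days overlap, and the 3 steps over all types were 1.24 ± 1.02, -0.11 ± 0.54 and 0.18 ± 0.47 on the log2 scale (limma adjusted p = 0.58, 0.94 and 0.90). The second step was positive with edgeR (0.21) and DESeq2 (0.22).

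Values by cell type are given for day 6. On that day the pMN libraries had 526, 230, 442, 732 and 436 normalised reads of Nfia, and the p3 libraries had 152, 586, 172, 281 and 310.5. The 6 p2 libraries had 6.97, 80.8 and 347 as lowest, median and highest, and the 6 p0-1 libraries had 0, 75.7 and 170. Every day 6 pMN library thus lay above every p0-1 library, while p2 and p3 overlap both. How many of all genes separate these groups was not counted. On day 5 the pMN libraries, at 55.3 to 823, overlapped those of p0-1, at 3.35 to 164.

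Over days 5 and 6 Nfia in pMN stood 2.77 ± 0.67 above p0-1 (limma adjusted p = 0.012) and 2.10 ± 0.67 above p2 (adjusted p = 0.17), and p3 minus pMN was -0.61 ± 0.69 (adjusted p = 0.81). In p3 it stood 2.17 ± 0.67 above p0-1 (adjusted p = 0.055). None of these was called. The difference between pMN and p0-1 passed with a pseudocount of 10 (adjusted p = 0.0051), with DESeq2 (adjusted p = 0.00080) and in 6 of the 65 fits that left out 1 library.

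Nfib (chr4:82290173-82505779, minus strand) had 36.4, 24.8 and 1.36 normalised reads in the NMP libraries and no read in any of the 16 day 4 libraries. More than 3 reads were found in 6 of 24 libraries on day 5 and in 13 of 22 on day 6. The day 6 mean of 38.9 was at least 13.8-fold above the 3-read floor of day 4. On day 6 the pMN libraries were the only group with Nfib in every library, at 23.4, 91.7, 45.4, 16.99 and 60.4.

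The steps of Nfib were not called by limma in the fit of all libraries. From day 3 to day 4 the limma adjusted p was 0.17, from day 4 to day 5 it was 0.31, and from day 5 to day 6 the change was 1.95 ± 0.73 with an adjusted p of 0.13. DESeq2 called all 3 steps (adjusted p = 3.0e-07, 2.0e-09 and 2.0e-05), with estimates of -20.8, 12.8 and 8.17. With every day 4 count at 0, the first and second of these are not measured fold changes. Nor is the third, since it averages over groups and some day 5 groups, such as p3 at 100 nM SAG, had no read. The ratio of the day 6 to the day 5 mean was 2.55. With array weights limma called the fall of Nfib by day 4 (adjusted p = 0.0027), as it did with the compared groups only (adjusted p = 0.0024). In pMN the step to day 6 was 3.22 ± 1.49 (adjusted p = 0.69). The 42 libraries without a read of Nfib detected a median of 12772 genes and the 23 with reads a median of 13026.

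Nfix (chr8:84704712-84800368, minus strand) shares exon positions with Lyl1 on the other strand, and the counting is not stated to use strand, so its reads cannot be told from those of Lyl1 there. It was at 0, 0 and 0.827 in the NMP libraries and reached 113 on day 4, 122 on day 5 and 189.5 on day 6. The medians of those days were 13.4, 0 and 1.71, and more than 3 reads were found in 9 of 16, 8 of 24 and 9 of 22 libraries. The steps were 3.02 ± 1.38, -1.88 ± 0.73 and 0.68 ± 0.64 (limma adjusted p = 0.23, 0.087 and 0.66), none called. With array weights the step of p0-1 to day 4 was called (4.01, adjusted p = 0.0082).

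Zbtb20 (chr16:42907645-43619123, plus strand) was read on every day, with 127, 125 and 19.0 normalised reads in the NMP libraries. The day 4 libraries ran from 0 to 961, those of day 5 from 0 to 1581 and those of day 6 from 0 to 585, with medians of 171, 191 and 194.5. Libraries of 1 cell type and day differed widely. The day 4 p3 libraries had 0, 0, 145 and 255.5, and the 6 of day 5 had 19.7, 421 and 1581 as lowest, median and highest.

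The p3 step from day 4 to day 5 was 5.82 ± 1.65 for Zbtb20 (limma adjusted p = 0.013), which missed the threshold. Without day 4 p3 at 100 nM SAG, replicate 3, which is at 0 and the only library of its group, the adjusted p was 0.49. The step was called in 10 of 75 alternative fits, namely with array weights (5.19, adjusted p = 0.0040), with DESeq2 (adjusted p = 4.6e-05) and in 8 fits that left out 1 library. Over all types the 3 steps were -0.02 ± 1.48, 0.97 ± 0.79 and 0.02 ± 0.69 (limma adjusted p = 0.997, 0.49 and 0.994). The first of these was positive with a pseudocount of 10 (0.41), quantile normalisation (1.56) and TMM scaling (0.034).

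Fabp7 (chr10:57784923-57788450, plus strand) encodes the fatty acid binding protein by which radial glia are often recognised. The NMP libraries had 1.65, 11.25 and 35.3 normalised reads, and the 16 day 4 libraries ran from 0 to 151 with a median of 7.80. On day 5 Fabp7 was at 0 in 13 of 24 libraries and reached 137. On day 6 it ran from 0 to 380 with a median of 147 and was at 0 in a single library, p3 at 100 nM SAG, replicate 2.

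The median of Fabp7 was higher on day 6 than on day 5 in each cell type. In p0-1 the lowest, median and highest values went from 0, 0 and 129 on day 5 to 4.55, 132 and 319 on day 6, and in p2 from 0, 2.84 and 126 to 15.1, 159 and 380. In p3 they were 0, 0 and 71.8 on day 5, and the 5 day 6 libraries had 154, 0, 187, 126 and 101.5. In pMN they were 0, 33.5 and 137 on day 5, and the day 6 libraries had 212, 281, 117, 256 and 139.5. In every type at least 3 day 6 libraries lay above all day 5 libraries of that type, and the ranges overlap.

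Over all types Fabp7 rose by 4.24 ± 0.74 on the log2 scale from day 5 to day 6 (limma adjusted p = 0.00015). On the linear scale the mean went from 29.5 ± 46.6 (SD, n = 24) to 158 ± 98.5 (SD, n = 22), a ratio of means of 5.37, and 21 of 22 day 6 libraries lay above the day 5 median. With many day 5 values at 0 the log2 estimate depends on the pseudocount, and it was 2.55 with a pseudocount of 10. Fabp7 was the only 1 of the 8 tested genes called in that step, in which 0.852% of all genes tested were called. The call held in all 65 fits that left out 1 library and with edgeR (adjusted p = 0.0027).

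Within single types the Fabp7 step was not called. It was 5.27 ± 1.43 in p0-1, 4.37 ± 1.43 in p2, 4.14 ± 1.52 in p3 and 3.20 ± 1.52 in pMN (limma adjusted p = 0.12, 0.17, 0.29 and 0.69). The share of all genes called from day 5 to day 6 was 0.0645% in p0-1, 0.15% in p2, 0.0215% in p3 and 0.0286% in pMN. None of the 8 genes was called in any of these, with 3, 3, 1 and 2 at an unadjusted p under 0.05, none called by edgeR and 3, 1, 2 and 0 called by DESeq2 in the same order. Among all 13964 genes 1086, 1569, 1421 and 971 had an unadjusted limma p under 0.05, in that order.

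Neuronal markers were also higher on day 6. Over the 7 markers the summed level ran from 205 to 2754 on day 5 and from 1228 to 6181 on day 6, and 2 of 7, Dcx and Elavl3, rose in that step. Their part in the Fabp7 result was not tested. The 45 libraries with a read of Fabp7 detected a median of 13065 genes, and the 20 at 0 a median of 12395.5.

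**Figure D3:**
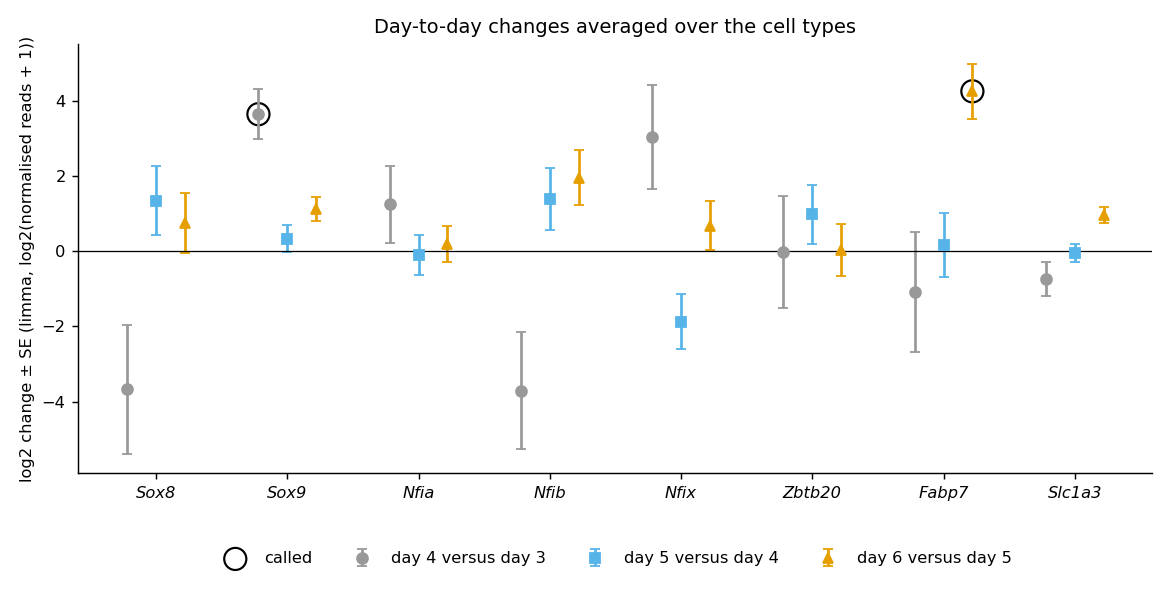
Log2 change with its standard error for the 8 tested genes in the 3 day steps averaged over cell types, with black rings around called changes. The rings are at Sox9 from day 3 to day 4 (3.64) and Fabp7 from day 5 to day 6 (4.24), and all points of the step to day 5 are without a ring.

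Slc1a3 (chr15:8634124-8710807, minus strand), the glutamate transporter of radial glia and astrocytes, was read in every library. The NMP libraries had 1083, 711 and 1639 normalised reads. The day 4 libraries ran from 132 to 1315 with a median of 721, those of day 5 from 120 to 1493 with a median of 733, and those of day 6 from 545 to 3681 with a median of 1285. It was thus present at the NMP stage, and 16 of 22 day 6 libraries lay above the day 5 median.

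From day 5 to day 6 the change of Slc1a3 over all types was 0.95 ± 0.21 (limma adjusted p = 0.0038), just under the 2-fold limit. It passed that limit in 3 of the 65 fits that left out 1 library and with DESeq2 (1.00). The steps before were -0.74 ± 0.46 and -0.06 ± 0.24 (adjusted p = 0.43 and 0.92).

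The p0-1 type had the widest course. Its day 4 libraries had 272.5, 132, 225, 611 and 435, all below the NMP libraries, and this difference was -1.98 ± 0.53 (limma adjusted p = 0.018). Its 6 day 5 libraries had 120, 465 and 770 as lowest, median and highest, and its 6 day 6 libraries had 701, 1285 and 3681. The step to day 6 was 1.87 ± 0.41 in p0-1, 1.38 ± 0.41 in p2, 0.49 ± 0.44 in pMN and 0.07 ± 0.44 in p3 (limma adjusted p = 0.021, 0.12, 0.92 and 0.99). None was called.

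In p0-1 the day 5 Slc1a3 libraries at 0 and 10 nM SAG did not overlap. That difference on day 5 alone was not tested, and how many of all genes separate these groups was not counted. At 0 nM SAG Slc1a3 had 120, 212 and 176 normalised reads, and at 10 nM it had 742, 719 and 770. On day 4 the values were 272.5 and 132 at 0 nM and 225, 611 and 435 at 10 nM, and on day 6 they were 711, 701 and 1498 against 1370, 1200 and 3681. The groups are apart on day 5 and overlap on days 4 and 6. The test of SAG concentration within the 4 cell types gave Slc1a3 an adjusted p of 0.090 (limma F test). It called none of the 8 genes, against 2.94% of all genes tested, and edgeR called none of the 8. Of the 8, 1 had an unadjusted p under 0.05, against 2122 of all 13964 genes.

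**Figure D4:**
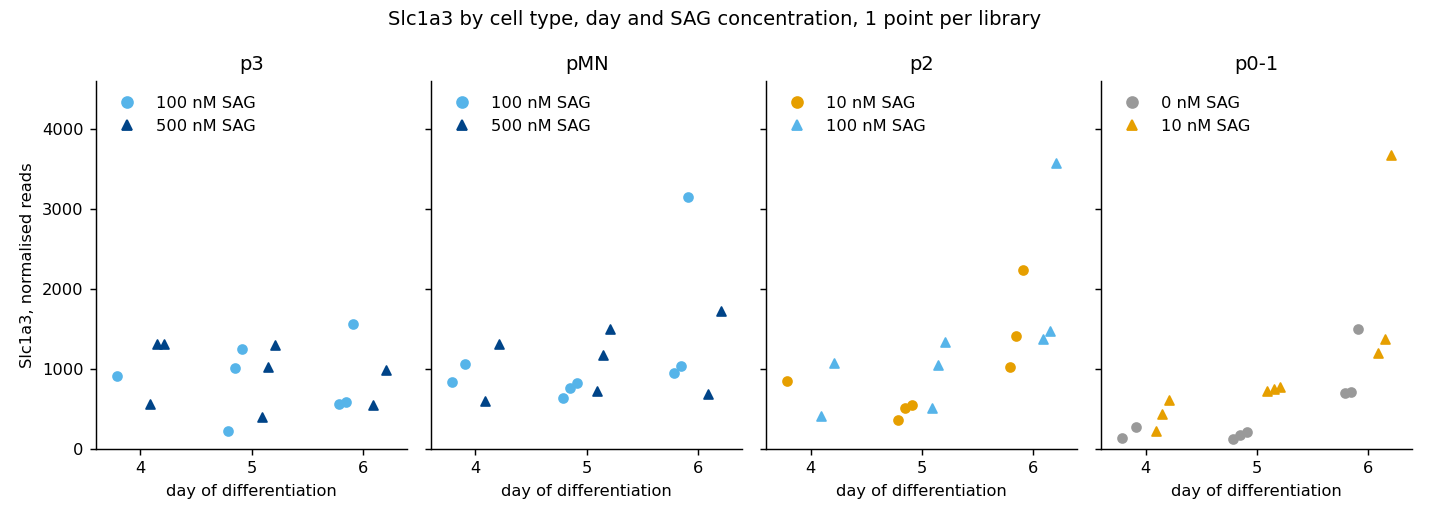
Slc1a3 in normalised reads against day for each cell type, with 1 point per library and colour and shape for the SAG concentration. On day 5 the p0-1 libraries at 0 nM SAG lie at 120 to 212 and those at 10 nM at 719 to 770.

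Tnc (chr4:63959785-64047015, minus strand), the matrix gene tenascin C, was at 0 in 53 of 65 libraries. It was absent from the NMP libraries and had more than 3 reads in 6 of 16 day 4 libraries, where it reached 102, in 1 of 24 on day 5 and in 4 of 22 on day 6. The day 4 p0-1 libraries held most of it, with more than 3 reads in 3 of 5. Its level was at the limit of what this depth shows.

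Between days 4 and 5 none of the 8 tested genes was called over all types by limma, which called 4.3% of all genes tested. Of the 8, 1 had an unadjusted p under 0.05, against 3422 of all 13964 genes. None of the 8 was called by edgeR and 3 were called by DESeq2. Over all 13964 genes DESeq2 called 2083 higher and 238 lower in that step. The step was not called within types either. The share of all genes called was 6.41% in p3, 0.695% in pMN, 0.193% in p2 and 0.337% in p0-1, and of the 8 genes 1, 3, 0 and 2 had an unadjusted p under 0.05, none was called by edgeR and 2, 3, 1 and 2 were called by DESeq2. Among all 13964 genes 3083, 1650, 835 and 1451 had an unadjusted limma p under 0.05, in that order. In pMN Sox9 was 1.80 ± 0.67 higher on day 5 (limma adjusted p = 0.21) and lay at 408 to 664 on day 5 against 99.9 to 205 on day 4.

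A direct test asked whether the course from day 4 to day 6 differed between the 4 cell types. It called none of the 8 genes and 2.6% of all genes tested, with none of the 8 called by edgeR. Of the 8, 3 had an unadjusted p under 0.05, against 1818 of all 13964 genes. The lowest values were those of Slc1a3, Sox8 and Zbtb20 (limma adjusted p = 0.17, 0.31 and 0.38). The different courses in p0-1 or pMN described above are therefore not shown to differ from those of the other types.

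The 6 pairs of cell types on days 5 and 6 gave no call among the 8 genes. The share of all genes called was 0.695% between p3 and pMN, 1.27% between p3 and p2, 1.43% between p3 and p0-1, 0.107% between pMN and p2, 0.96% for pMN against p0-1, and 0.322% for p2 against p0-1. In the same order 2, 1, 1, 2, 6 and 1 of the 8 genes had an unadjusted p under 0.05, none was called by edgeR, and 2, 2, 0, 0, 4 and 2 were called by DESeq2. Among all 13964 genes 1573, 2450, 2222, 1480, 1636 and 1139 had an unadjusted limma p under 0.05, in that order. All-gene DESeq2 calls are not given for these pairs. The 6 genes of the pMN and p0-1 pair were Sox8, Sox9, Nfia, Nfib, Fabp7 and Slc1a3, all with higher estimates in pMN.

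Sox9 also had its highest median in pMN. On days 5 and 6 its medians were 545 in pMN, 351 in p2, 329.6 in p3 and 218 in p0-1, with 11 of 11 pMN libraries above the p0-1 median. The pMN level stood 1.60 ± 0.44 above p0-1 (limma adjusted p = 0.035) and 0.77 ± 0.44 above p2 (adjusted p = 0.56), and p3 minus pMN was -0.93 ± 0.45 (adjusted p = 0.41). With both days together the ranges of all 4 types overlap, while on day 5 alone pMN (408 to 664) and p3 (101 to 329.6) do not.

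**Figure D5:**
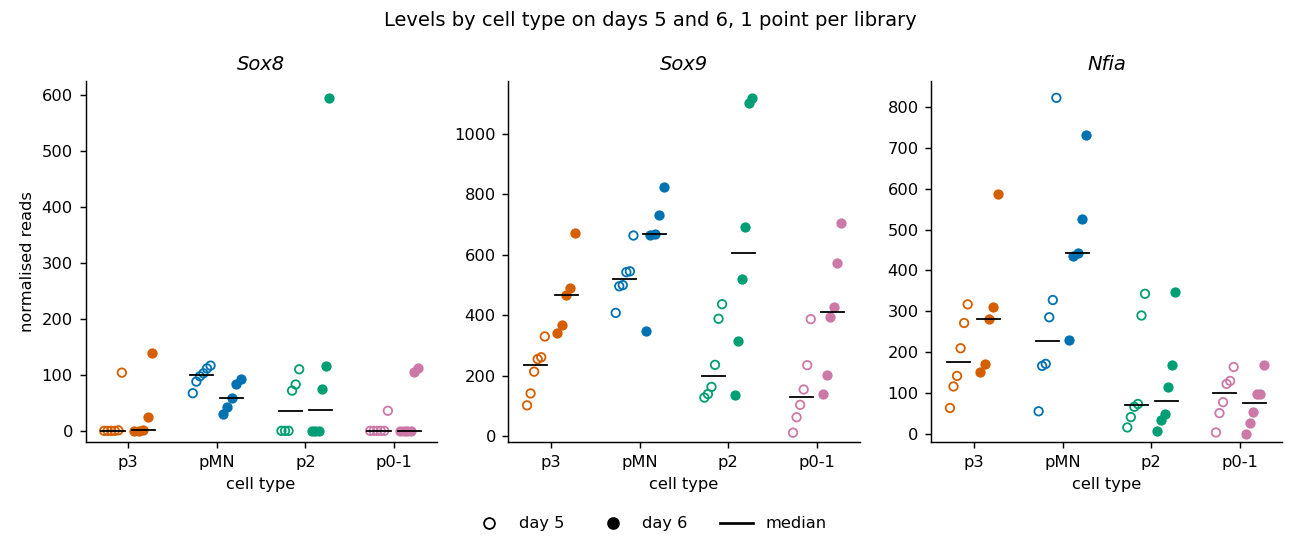
Normalised reads of Sox8, Sox9 and Nfia by cell type on day 5 (open points) and day 6 (filled points), with 1 point per library and bars at the medians. Sox8 is above 0 in all 11 pMN libraries, at 29.7 to 117, and Nfia on day 6 is at 230 to 732 in pMN against 0 to 170 in p0-1. On day 5 the Nfia values of pMN and p0-1 overlap.

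Per kilobase of exon, the scale on which genes can be compared, the day 6 mean was 346 normalised reads for Slc1a3, 208 for Fabp7, 130.5 for Sox9 and 68.7 for Zbtb20. Nfia had 23.7 and Sox8 22.4, followed by Nfib at 4.21, Nfix at 2.94 and Tnc at 0.486, with Sox10 at 0. On day 3 the order began with Slc1a3 at 272, Zbtb20 at 27.2, Fabp7 at 21.1 and Sox8 at 15.1, with Sox9 at 6.99. Sox9 thus stood below Sox8 in the NMP libraries and above it on every later day.

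The genes most like each of the 4 more abundant members were found by Pearson r over the 25 group means, which share libraries and depth, among 10173 genes with a mean of at least 100. For Sox9 they were Ackr3 (0.87), Tcf7l2 (0.84) and Fhl1 (0.835). For Nfia they were Acat3 (0.75), Acat2 (0.72) and Olfml3 (0.72), for Zbtb20 Fastkd1 (0.87), Nhlrc2 (0.85) and Baz1a (0.85), and for Slc1a3 B4gat1 (0.77), Aptx (0.72) and Heg1 (0.68). Sox9 had an r of 0.44 with Nfia and 0.42 with Slc1a3, and Zbtb20 had 0.07 with Sox9 and -0.11 with Nfia and Slc1a3.

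Other genes of the glial program were read against the same steps. Of 12 radial glia genes 11 were tested, and from day 3 to day 4 3 rose and none fell, with a median change of 1.21 against -0.40 for all genes. Ednrb, the endothelin receptor of progenitors, had no read on day 3 and a day 4 mean of 2793, at least 843-fold above a 3-read floor. Hes5, a Notch target of progenitors, rose by 7.96 ± 0.30 (limma adjusted p = 1.3e-26) and Msi2, an RNA binding protein, by 1.31 ± 0.25 (adjusted p = 0.00019).

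From day 4 to day 5 2 of the 11 rose, Ednrb by 1.38 ± 0.14 and Vim, an intermediate filament of radial glia, by 1.26 ± 0.15 (limma adjusted p = 1.1e-10 and 2.2e-08). The growth factor gene Ptn fell by 3.02 on that step and by 2.00 from day 5 to day 6 (adjusted p = 4.4e-05 and 0.0062), where no other gene of the list was called. The last of these calls held in 65 of 75 alternative fits. The median changes of the list were 0.35 and 0.24 in these steps, against 0.014 and 0.0037 for all genes.

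Genes of later astrocytes were called in both directions. Of 14, 10 were tested, and each step had 1 gene that rose and 1 that fell. Fgfr3, a receptor of astrocyte progenitors, rose by 5.28 ± 0.50 by day 4 (limma adjusted p = 1.4e-11), and Slc1a2, the glutamate transporter GLT-1, rose by 3.30 ± 0.85 by day 5 and 3.12 ± 0.75 by day 6 (adjusted p = 0.0055 and 0.0078). Apoe, an apolipoprotein, fell by 1.78, 1.29 and 1.11 in the 3 steps (adjusted p = 0.00075, 3.6e-06 and 2.4e-05). The list medians were -0.86, -0.53 and -0.44, against -0.40, 0.014 and 0.0037 for all genes. The day 6 call of Slc1a2 held in 47 of 75 alternative fits, the others being the fit with no filter on low values and fits without 1 library.

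Gfap, the filament of mature astrocytes, had more than 3 reads in 2 of 16 day 4 libraries, with a day 4 mean of 9.07. It had no read in any library of days 5 and 6. Aqp4, the astrocyte water channel, had none on days 3 and 4 and a highest value of 81.8 on day 6. Of 14 oligodendrocyte lineage genes 7 were tested and none was called by limma in any step, with list medians of 0.41, -1.18 and 0.72, none called by edgeR or DESeq2, and 0, 1 and 3 at an unadjusted p under 0.05. None of 8 JAK-STAT genes of astrocyte induction was called by limma, edgeR or DESeq2 in any step, with medians of 0.54, -0.05 and 0.14 and 1 gene at an unadjusted p under 0.05 in each step.

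Of 11 genes linked to gliogenesis, among them reported targets or partners of SOX9 and NFIA, 9 were tested. The same 3, Pou3f2, Nr2f1 and Nr2f2, rose by day 4 and again by day 5, and by limma none was called by day 6, with 2 at an unadjusted p under 0.05, none called by edgeR and 2 by DESeq2. Pou3f2, a POU factor, rose by 8.19 ± 0.38 and 1.67 ± 0.20 (limma adjusted p = 1.2e-22 and 3.0e-08). Nr2f1 and Nr2f2, orphan nuclear receptors, rose by 6.29 ± 0.56 and 6.20 ± 0.52 by day 4 and by 3.14 ± 0.30 and 1.56 ± 0.28 by day 5 (adjusted p from 5.0e-05 to 2.7e-13). All cultures received retinoic acid from day 3, and any part of it, SOX9 or NFIA in these rises was not tested. The list medians were 1.35, 0.83 and 0.41, and the first was 2.54 with 1 gene at 0 on day 3 set at its bound.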

How the data were processed

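PolyA RNA was sequenced from 65 libraries of sorted, fixed cells. The authors aligned reads with STAR in the nf-core pipeline to mm10 and counted them per gene with featureCounts, per the methods and the submitters' processing notes. The strand setting is not given in the sources used here, and libraries that failed quality criteria were removed. The deposited values are a signal, namely read counts divided by 1 size factor per library. Of 834400 values above 0, 100% came out as whole reads within a tolerance of 0.001 reads, with 7615114 to 13484815 reads per library.

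Groups were cell type, day and SAG concentration. limma 3.58.1 (R 4.3.3) was fitted to log2(value + 1) with 1 mean per group, for 13964 genes with a mean of at least 10, two-sided, with Benjamini-Hochberg adjustment, and a change was called at an adjusted p below 0.01 and more than 2-fold. Changes are on this log2 scale, and for low genes, or where many values are 0, they can be smaller or larger than the ratio of means. Tested were the day steps over all types and within each, pairs of types on days 5 and 6, and F tests of the interaction and of SAG. Alternatives were a pseudocount of 10, no filter, a mean of at least 100, quantile and TMM scaling, a replicate block, array weights, the compared groups only, edgeR 4.0.16 and DESeq2 1.42.0 on the recovered reads, and leaving out each library. edgeR called 147 genes higher and 263 lower by day 4, 553 and 66 by day 5, and 46 and 48 by day 6. For DESeq2 these were 275 higher and 792 lower by day 4, 2083 and 238 by day 5, and 348 and 551 by day 6. All-gene DESeq2 calls are not given for the steps within single types. An unadjusted limma p under 0.05 was found for 2426 genes by day 4, 3422 by day 5 and 2279 by day 6. Scripts were tested on simulated data.

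The 10 genes and all gene lists were chosen with earlier results of these data known. The 10 are named whatever their values. Of each list at most 3 called genes per direction are named, those with the largest change, and the 3 genes most like each member with a mean of at least 100. Gfap and Aqp4 were named after their values were seen. The summary of the neural crest marker list is not reported here. Promoter windows came from the RefSeq table for GRCm38.p6.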

Additional observations from a re-analysis of the deposited data

How the results depend on the processing

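Of the 8 tested genes, the day steps over all types gave 2 calls, which became 1 with a mean of at least 100 (Fabp7 was then not tested), 1 with edgeR and 12 with DESeq2, and 1 to 3 when a library was left out. The steps within types gave 3 calls, which became 7 with array weights, 0 with edgeR and 27 with DESeq2, and 0 to 4 when a library was left out. The pairs of types gave none, against 1 with a pseudocount of 10, 10 with DESeq2 and 0 to 2 when a library was left out. The F tests called none under any alternative run, and DESeq2 was not run for them. Over all genes tested DESeq2 also called more than limma in each step over all types. The cause of these differences was not tested. Fabp7 from day 5 to day 6 was called in all 74 alternatives that tested it, with 4.02 to 4.55 on the log2 scale when a library was left out. Sox9 by day 4 lost its call over all types with edgeR and without NMP replicate 3.

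With the replicate block the steps within types gave 5 calls, the 2 added being Slc1a3 in p0-1 by day 4 (-2.04, adjusted p = 0.0024) and by day 6 (1.87, adjusted p = 0.0043) in limma. The labels do not say that a number marks a shared batch, and deviations of libraries with the same number had a median r of 0.016 over 634 pairs, with 5 over 0.1, against -0.0079 over 1262 pairs with other numbers. Of the pairs with other numbers 0 were over 0.1. The check pooled all days and SAG concentrations, so it cannot tell whether cell types sorted from the same dish vary together. The main fit did not pair libraries, and sharing of a dish was not modelled.

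Signs that turned were all of changes that were not called. Zbtb20 by day 4 was 0.41 with a pseudocount of 10, 1.56 with quantile normalisation and 0.034 with TMM scaling, and Fabp7 by day 4 was 0.98 with quantile normalisation. Nfia by day 5 was 0.21 with edgeR and 0.22 with DESeq2, Slc1a3 by day 5 was 0.11 with the block, and Zbtb20 by day 6 was -0.18 with edgeR and -0.16 with DESeq2. When a library was left out, Nfia ran from -0.049 to 2.14 by day 4, from -0.26 to 0.079 by day 5 and from -0.0025 to 0.44 by day 6. Fabp7 by day 5 ran from -0.17 to 0.45, Slc1a3 by day 5 from -0.15 to 0.036, and Zbtb20 from -0.91 to 0.85 by day 4 and from -0.30 to 0.38 by day 6. At these depths a gene at 0 in a library may have had up to 3 reads by counting error, and loss before sequencing is not covered by that bound. Both limit Sox8, Sox10, Nfib, Nfix, Fabp7 and Tnc.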
